A study of Mus musculus with 8 samples.

Results

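The genes described here are the cytosolic aminoacyl-tRNA synthetases and the genes of the amino acid stress response that the transcription factor ATF4 governs, measured in mouse regulatory T (Treg) cells with and without Foxp3. They were chosen by name: the symbols of the cytosolic tRNA synthetases (20 genes) and 25 symbols of ATF4-linked stress genes, which have 26 entries because Ddit3 is annotated under 2 overlapping gene models. This gave 46 of the 55665 annotated genes. Of these, 45 had enough counts to test, among 16642 tested genes in all. The entry that did not was the second Ddit3 model (ENSMUSG00000116429.1), with 0 to 4 counts in a library, and Ddit3 below means the first model.

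The cells were natural Treg (nTreg) cells, CD4+ T cells sorted for the green fluorescent Foxp3 reporter from spleen and lymph nodes and kept in culture outside the body. Each of the 4 groups held 2 libraries. They were cells with a guide RNA against Foxp3 (sgFoxp3) and cells with the control guide (sgNC), each taken after 3 h of restimulation through the T cell receptor (TCR) with anti-CD3 and anti-CD28 antibodies, and the same guides in mock-treated cells given DPBS (0 h). All groups, controls included, carried RosaCas9/+ and the Foxp3gfp reporter allele. The labels name neither the animals' age nor how many animals or cultures gave the libraries, so a p-value here sets a difference against variation among libraries that may be technical only. Library totals ran from 38729009 to 94807362 expected counts.

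Foxp3 transcripts stood at 76.1 and 71.8 CPM (read counts scaled to library size, with TMM factors) in sgFoxp3 cells at 3 h, against 679 and 673 CPM with sgNC, and at 87.6 and 88.5 CPM at 0 h, against 764 and 776 CPM. The T cell genes Cd3e, Cd3g, Cd4 and Cd5 were abundant in every library, the lowest value being 122 CPM. Among 3 erythroid markers only the globin gene Hba-a1 was above 0.1 CPM, and its level moved with the guide, at 71.0 and 72.3 CPM with sgFoxp3, against 6.46 and 6.49 CPM with sgNC at 3 h. The 4 myeloid markers together reached 4.35 and 4.26 CPM with sgFoxp3 at 3 h, against 0.910 and 1.02 CPM with sgNC. Of the macrophage genes among them, Csf1r and Lyz2 stayed at or near 0, but Adgre1 was higher with sgFoxp3. Adgre1 had 0.755 and 0.584 CPM with sgFoxp3, against 0.155 and 0.142 CPM with sgNC at 3 h. Its 0 h levels were 0.560 and 0.567 CPM with sgFoxp3, against 0.134 and 0.0408 CPM with sgNC. At 0 h the NK marker Klrb1c had 1.11 and 0.989 CPM with sgFoxp3, against 0.0447 and 0.0204 CPM with sgNC. Ncr1, the other NK marker, had at most 0.0204 CPM in any library. Pecam1, listed here as a stromal marker, had 130.9 and 130.1 CPM with sgFoxp3 at 0 h, against 201.3 and 211.4 CPM with sgNC. Pdgfrb, of the same list, had at most 0.067 CPM in any library. At 3 h Pecam1 was higher, at 39.8 and 41.6 CPM with sgFoxp3, against 30.2 and 29.6 CPM with sgNC, as was the fibroblast gene Col1a1, at 0.449 and 0.413 CPM, against 0.111 and 0.189 CPM. The CD8 T cell genes were also higher at 3 h, Cd8a at 2.14 and 1.77 CPM with sgFoxp3, against 1.29 and 1.04 CPM with sgNC, and Cd8b1 at 5.96 and 6.93 CPM, against 5.13 and 5.19 CPM. The part of these markers in the results was not tested. In bulk RNA, fewer cells with a transcript and less transcript per cell cannot be told apart.

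Cells sense a shortage of amino acids through uncharged tRNA, which activates the kinase GCN2, and stress in the endoplasmic reticulum through the kinase PERK. Both phosphorylate the initiation factor eIF2, which lowers translation in general and raises that of ATF4. ATF4 then switches on genes for amino acid import, amino acid synthesis and tRNA charging, together with feedback genes such as Trib3 and Chac1. Because ATF4 is largely controlled in translation, its transcript level is not a measure of its protein. Stimulated T cells are known to enlarge amino acid uptake and protein synthesis within hours, and the synthetases supply the charged tRNAs for this.

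The first comparison asked how loss of Foxp3 changed these genes in stimulated cells. At 3 h, 19 of 25 tested stress genes were higher with sgFoxp3 than with sgNC, 2 were lower and 4 did not pass (edgeR's quasi-likelihood test, adjusted p below 0.05). Of all tested genes, 61.5% passed in either direction, 30.7% as higher and 30.8% as lower. Higher by 2-fold or more were 11 stress genes, where 7.71% of all genes were, and none was lower by that much, where 8.88% were. They were Slc7a11, Chac1, Stc2, Slc7a3, Trib3, Gpt2, Nupr1, Pck2, Slc1a4, Eif4ebp1 and Asns. Slc7a11 passed the filter on low counts only through the stimulated sgFoxp3 libraries. The median log2 change of the list was 0.39, against -0.01 over all tested genes. In TPM, which also scales to transcript length and where the median of all genes was -0.12 instead, 14 stress genes were higher and 4 lower on the log2(TPM+1) scale. The 11 genes above were among the 14, and Atf5, Cebpb, Cebpg, Slc3a2 and Slc38a2 were not.

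The synthetases moved in the same direction by less. Of the 20, 19 rose with sgFoxp3 at 3 h, none fell and only Vars did not pass, and the largest change was that of Aars, 1.82-fold. The median log2 change was 0.30. On the log2(TPM+1) scale 9 were higher (Aars, Cars, Gars, Hars, Iars, Nars, Sars, Tars and Yars) and 2 lower (Lars and Vars), and Farsa, Kars, Lars, Qars, Rars and Wars changed sign. The synthetase median there, 0.09, lay 0.21 above that of all genes, and 18 of the 20 lay above it. Summed over the 20 genes, the level was 4332 and 4400 CPM with sgFoxp3, against 3479 and 3426 CPM with sgNC. In TPM the gap between the sums was smaller, 2472 and 2419 with sgFoxp3, against 2314 and 2243 with sgNC.

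**Figure D1:**
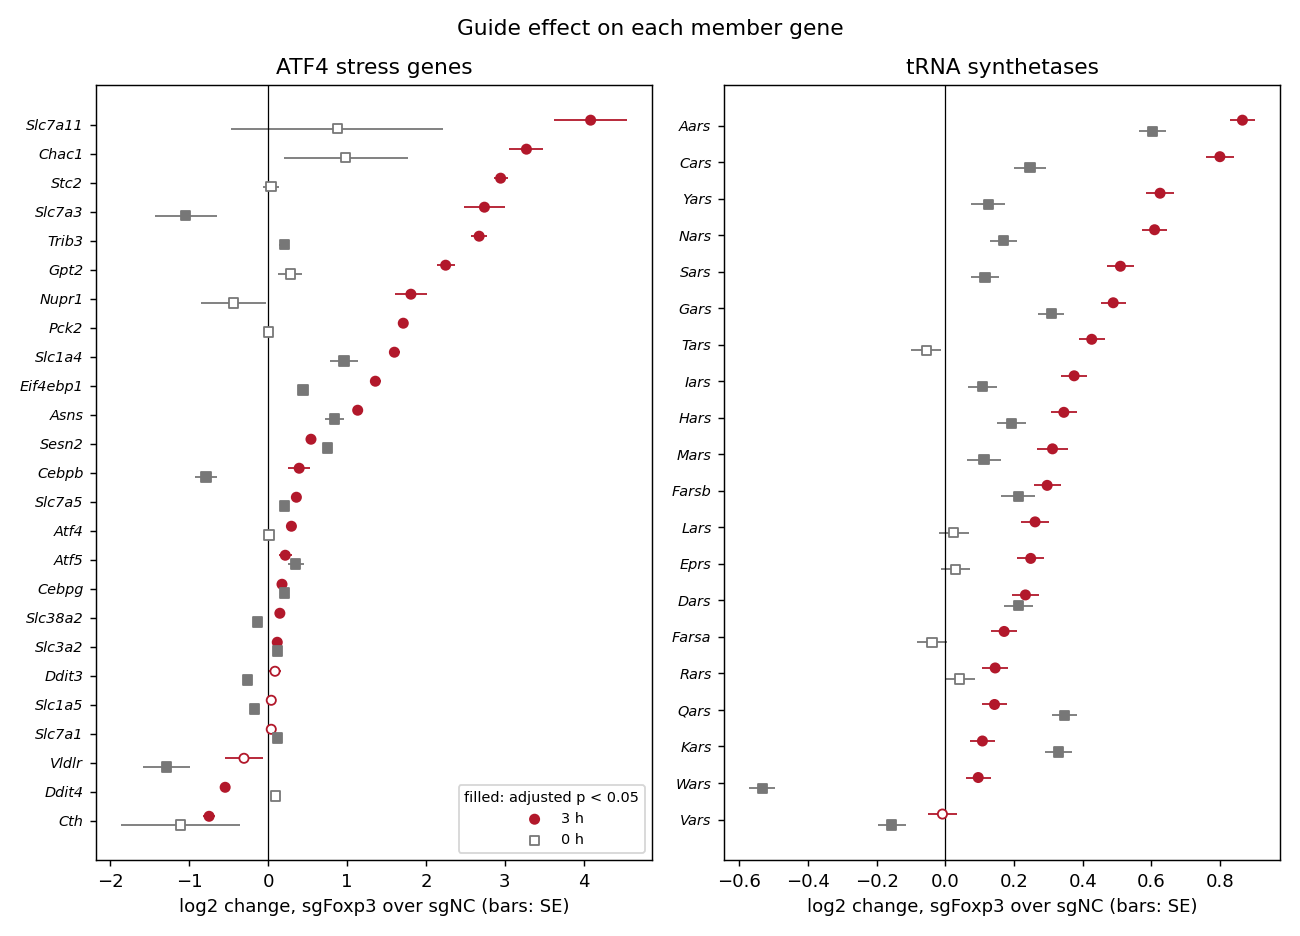
Log2 change of each gene, sgFoxp3 over sgNC, at 3 h and at 0 h, with SE bars, for the 25 tested ATF4 stress genes and the 20 tRNA synthetases; filled points passed an adjusted p of 0.05. At 3 h 19 genes of each list lie above 0 and pass, and at 0 h 10 stress genes and 13 synthetases do, with Vldlr, Cebpb and Wars among those further below 0; on the log2(TPM+1) scale 14 stress genes and 9 synthetases were higher at 3 h and 1 of each at 0 h.

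Many ATF4-bound promoters carry a C/EBP-ATF response element, whose letters were taken here as TGATGNAA on either strand. RefSeq promoter windows of GRCm38.p6, 250 bases before to 50 after the start, were found for 20 of the 25 stress genes and 13 of the 20 synthetases. A match stood in 8 of those 20 stress genes (40%) and 5 of those 13 synthetases (38.5%), where 4.51% of 27025 symbols with a window had one. The stress genes were chosen for their link to ATF4, so their share is no test of that link. The E-box CACGTG, the site of Myc and related factors, showed another distribution: it stood in 4 of 13 synthetases (30.8%) and 1 of 20 stress genes (5%), against 8.09% of all symbols. In these windows no match of one motif overlapped the other. Sites with 10 bases on each side are shown for some of the genes that were higher at 3 h, with the 8 matching bases in capitals, 5′ to 3′ on the gene's own strand; a match is a run of letters and not evidence of binding.

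Trib3 (chr2:152344029-152344056, -): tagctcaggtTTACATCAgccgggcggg

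Nupr1 (chr7:126625563-126625590, -): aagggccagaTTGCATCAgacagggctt

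Asns (chr6:7693215-7693242, -): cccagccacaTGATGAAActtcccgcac

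Pck2 (chr14:55540153-55540180, +): gccttcaaagTTACATCAgtatcttaca

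Slc1a4 (chr11:20332700-20332727, -): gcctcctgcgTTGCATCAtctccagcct

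Gars (chr6:55037961-55037988, +): ggctgcgctaTTTCATCAtgcaccgggc

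Tars (chr15:11399656-11399683, -): aggagtcccgTTGCATCAgctggttagc

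Iars (chr13:49682127-49682154, +): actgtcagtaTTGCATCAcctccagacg

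Yars (chr4:129189896-129189923, +): cgagctcagcTGATGCAAcccgacggga

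Counting the first base of the RefSeq transcript as 1, the matches of Trib3, Iars and Yars began at 15, 8 and 4, within that transcript. Those of the other genes shown began upstream of it, Slc1a4 nearest at -4. The GENCODE gene bounds, printed below for some genes, start elsewhere. By those bounds the Trib3 match lies upstream, those of Asns and Nupr1 lie within the gene, and that of Slc1a4 spans the start. For the genes with the largest rises at 3 h, Slc7a11 and Chac1, the stretch from 250 to 31 bases before the start is given, again with matches in capitals. In Slc7a11 the matches began at -66 and -47, on opposite strands, and in Chac1 the single match began at -193.

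Slc7a11 (chr3:50443644-50443863, -): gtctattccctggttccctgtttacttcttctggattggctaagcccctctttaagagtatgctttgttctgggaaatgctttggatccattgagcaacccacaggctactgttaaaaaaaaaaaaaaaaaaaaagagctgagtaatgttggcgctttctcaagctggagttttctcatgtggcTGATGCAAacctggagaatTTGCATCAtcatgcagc

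Chac1 (chr2:119350992-119351211, +): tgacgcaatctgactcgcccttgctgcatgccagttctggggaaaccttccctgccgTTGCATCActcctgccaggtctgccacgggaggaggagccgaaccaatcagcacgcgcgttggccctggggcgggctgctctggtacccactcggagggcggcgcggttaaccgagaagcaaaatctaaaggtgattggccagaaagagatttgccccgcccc

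The stress genes with a match (Asns, Chac1, Nupr1, Pck2, Slc1a4, Slc7a11, Trib3 and, in 1 of its 2 windows, Vldlr) had a median guide effect of 1.76 at 3 h, and 7 of 8 rose. Among these 7, Slc7a11 passed the filter on low counts only through the stimulated sgFoxp3 libraries. The 12 stress genes with a window but no match had a median of 0.20, and 9 of them rose, Stc2 and Gpt2 by the most. Of all tested genes, 30.7% rose at 3 h. Sequence outside the windows was not searched, so a gene without a match here may hold one elsewhere. Among synthetases the 5 with a match (Aars, Gars, Iars, Tars and Yars) had a median of 0.49 and the 8 without had 0.24, all 13 being higher in CPM; on the log2(TPM+1) scale Farsa, Kars and Qars changed sign. These medians describe the genes and were not tested.

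Among the transcription factors of the branch, Atf4 itself (ENSMUSG00000042406.8; chromosome 15, 80255184 to 80257541, plus strand) was little changed by the guide. At 3 h it had 403 and 416 CPM with sgFoxp3, against 326 and 341 CPM with sgNC, a log2 change of 0.30 ± 0.038 (SE; adjusted p = 3.80e-07, edgeR). At 0 h it had 93.1 and 96.2 CPM with sgFoxp3, against 94.8 and 93.03 CPM with sgNC, and the libraries overlapped. TCR stimulation raised Atf4 with both guides, by 2.11 ± 0.040 with sgFoxp3 and 1.83 ± 0.041 with sgNC, and all 3 h libraries lay above all 0 h libraries.

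The C/EBP and ATF partners of ATF4 differed in how they moved. Ddit3, which encodes CHOP, a factor that joins ATF4 in prolonged stress, had 9.49 and 10.2 CPM with sgFoxp3, against 9.17 and 9.49 CPM with sgNC at 3 h, and this log2 difference of 0.09 ± 0.074 did not pass (adjusted p = 0.322, edgeR). At 0 h Ddit3 had 16.9 and 17.8 CPM with sgFoxp3, against 21.5 and 20.2 CPM with sgNC, a log2 change of -0.26 ± 0.062, and its TCR effects were -0.81 ± 0.065 with sgFoxp3 and -1.16 ± 0.070 with sgNC. Ddit3 was thus at its lowest in the stimulated libraries of both guides, where Atf4 was at its highest. Cebpb, a C/EBP factor that pairs with ATF4, turned round between the times: it had 4.08 and 3.81 CPM with sgFoxp3, against 2.71 and 3.28 CPM with sgNC at 3 h and 2.59 and 2.05 CPM with sgFoxp3, against 3.71 and 4.303 CPM with sgNC at 0 h. Its guide effect was 0.39 ± 0.14 at 3 h and -0.79 ± 0.14 at 0 h, and the difference of 1.18 ± 0.19 passed (adjusted p = 2.02e-05, edgeR). The 3 h effect of Cebpb alone lost its call without sgFoxp3 3 h replicate 1 (adjusted p = 0.064) or sgNC 3 h replicate 1 (adjusted p = 0.186). Atf5, a relative of ATF4, stood at 10.1 and 10.03 CPM with sgFoxp3, against 8.32 and 8.97 CPM with sgNC at 3 h and at 5.18 and 4.99 CPM with sgFoxp3, against 4.200 and 3.79 CPM with sgNC at 0 h. It rose with stimulation by 0.98 ± 0.084 with sgFoxp3 and 1.11 ± 0.098 with sgNC. Cebpg, the usual partner of ATF4 in heterodimers, stayed between 62.2 and 73.9 CPM in all 8 libraries.

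Of the 8 feedback and effector genes of the response, 6 were higher with sgFoxp3 at 3 h and 1 was lower. Of all tested genes, 30.7% were higher and 30.8% lower. Trib3, a pseudokinase that restrains ATF4 and AKT (ENSMUSG00000032715.9; chromosome 2, 152337422 to 152344032, minus strand), had 12.5 and 12.8 CPM with sgFoxp3, against 1.71 and 2.27 CPM with sgNC at 3 h, so the groups were far apart (6.38-fold, log2 2.67 ± 0.10, adjusted p = 4.40e-17, edgeR). In mock-treated cells the gap was small, 21.4 and 20.3 CPM with sgFoxp3, against 18.2 and 18.05 CPM with sgNC, a log2 change of 0.20 ± 0.065, which turned to -0.06 on the log2(TPM+1) scale. Stimulation lowered Trib3 with both guides, with TCR effects of -0.72 ± 0.065 with sgFoxp3 and -3.19 ± 0.099 with sgNC. The stimulated sgNC libraries were thus the lowest of all, and the stimulated sgFoxp3 libraries lay between them and the mock-treated ones.

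Chac1, an enzyme that degrades glutathione and a late marker of ATF4 activity (ENSMUSG00000027313.3; chromosome 2, 119351229 to 119354381, plus strand), was close to absent before stimulation. It had 7.94 and 7.62 CPM with sgFoxp3, against 0.599 and 1.01 CPM with sgNC at 3 h, a 9.67-fold difference (log2 3.27 ± 0.22, adjusted p = 1.20e-09, edgeR). In mock-treated cells it had 18 counts over both sgFoxp3 libraries and 6 over both sgNC libraries, 1 of which had none, and the guide effect of 0.98 ± 0.79 did not pass (adjusted p = 0.293, edgeR). Without sgNC 0 h replicate 2, which left a single sgNC library with no Chac1 count, the fitted value was 5.92 and passed (adjusted p = 0.0089), and without sgNC 0 h replicate 1 it was 0.08. The difference between the guide effects, 2.29 ± 1.0, did not pass either (adjusted p = 0.0785, edgeR). It did pass with DESeq2 (2.33, adjusted p = 0.00908) and in edgeR without the filter on low counts (2.265, adjusted p = 0.0214). With limma on the TPM scale it also passed (2.01 with a pseudocount of 1, adjusted p = 7.73e-05, and 2.43 with 0.1, adjusted p = 0.0142). Without sgNC 3 h replicate 2 the difference was 2.7, and without sgNC 0 h replicate 1 it was 3.2. Stimulation raised Chac1 by 5.89 ± 0.27 with sgFoxp3 and by 3.6 ± 0.56 with sgNC on the log2 scale.

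Stc2, a secreted glycoprotein induced by ER stress (ENSMUSG00000020303.2; chromosome 11, 31357307 to 31370074, minus strand), differed between the guides at 3 h and did not pass at 0 h. Its 3 h levels were 24.9 and 25.5 CPM with sgFoxp3, against 3.46 and 3.07 CPM with sgNC, and its 0 h levels 4.48 and 4.04 CPM with sgFoxp3, against 4.401 and 3.94 CPM with sgNC. The guide effect was 2.95 ± 0.088 at 3 h and 0.04 ± 0.10 at 0 h, and their difference of 2.91 ± 0.14 passed (adjusted p = 1.55e-14, edgeR). With sgFoxp3 stimulation raised Stc2 by 2.56 ± 0.077, while with sgNC it fell by 0.35 ± 0.11, a fall that lost its call without sgNC 3 h replicate 2 (adjusted p = 0.0902) or sgNC 0 h replicate 1 (adjusted p = 0.0692). All libraries other than stimulated sgFoxp3 lay below 5 CPM.

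Nupr1, a small stress-induced chromatin protein, had 2.55 and 2.88 CPM with sgFoxp3, against 0.688 and 0.873 CPM with sgNC at 3 h and 0.182 and 0.145 CPM with sgFoxp3, against 0.179 and 0.265 CPM with sgNC at 0 h. The 3 h groups did not overlap (log2 1.81 ± 0.20), those at 0 h did, and the difference between the guide effects was 2.25 ± 0.48 (adjusted p = 3.98e-04, edgeR). Eif4ebp1, the translation repressor 4E-BP1, had 31.4 and 30.7 CPM with sgFoxp3, against 11.9 and 12.3 CPM with sgNC at 3 h and 17.1 and 15.99 CPM with sgFoxp3, against 11.2 and 13.1 CPM with sgNC at 0 h. Stimulation raised it by 0.91 ± 0.059 with sgFoxp3, while its TCR effect with sgNC, -0.01 ± 0.075, did not pass.

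The mTORC1 inhibitors of the response went their own ways. Sesn2, which senses leucine, had 63.4 and 59.6 CPM with sgFoxp3, against 40.8 and 43.4 CPM with sgNC at 3 h and 105 and 99.1 CPM with sgFoxp3, against 57.8 and 63.3 CPM with sgNC at 0 h. It was higher with sgFoxp3 at both times, by 0.54 ± 0.052 and, in mock-treated cells, by the larger 0.75 ± 0.049 (difference -0.21 ± 0.071, adjusted p = 0.0202, edgeR). This difference lost its call without sgFoxp3 3 h replicate 2 (adjusted p = 0.369), sgFoxp3 0 h replicate 1 (0.0896), sgNC 3 h replicate 2 (0.0834) or sgNC 0 h replicate 1 (0.113). Ddit4, also called REDD1, was the reverse at 3 h, with 53.02 and 54.3 CPM with sgFoxp3, against 73.4 and 83.3 CPM with sgNC, a log2 change of -0.54 ± 0.050. At 0 h Ddit4 had 288 and 275 CPM with sgFoxp3, against 261 and 267 CPM with sgNC, and its TCR effects were -2.39 ± 0.048 with sgFoxp3 and -1.75 ± 0.048 with sgNC. Vldlr, a lipoprotein receptor also induced in ER stress, was scarce in every library. At 3 h it had 0.673 and 1.01 CPM with sgFoxp3, against 1.199 and 0.944 CPM with sgNC, which overlapped, and at 0 h 0.322 and 0.306 CPM with sgFoxp3, against 0.804 and 0.734 CPM with sgNC, a log2 change of -1.28 ± 0.30. The difference between these effects, 0.98 ± 0.38, passed (adjusted p = 0.0405, edgeR) and lost its call in 6 of the 8 fits that left out 1 library, with adjusted p from 0.0633 (without sgNC 0 h replicate 2) to 0.25 (without sgFoxp3 3 h replicate 2).

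**Figure D2:**
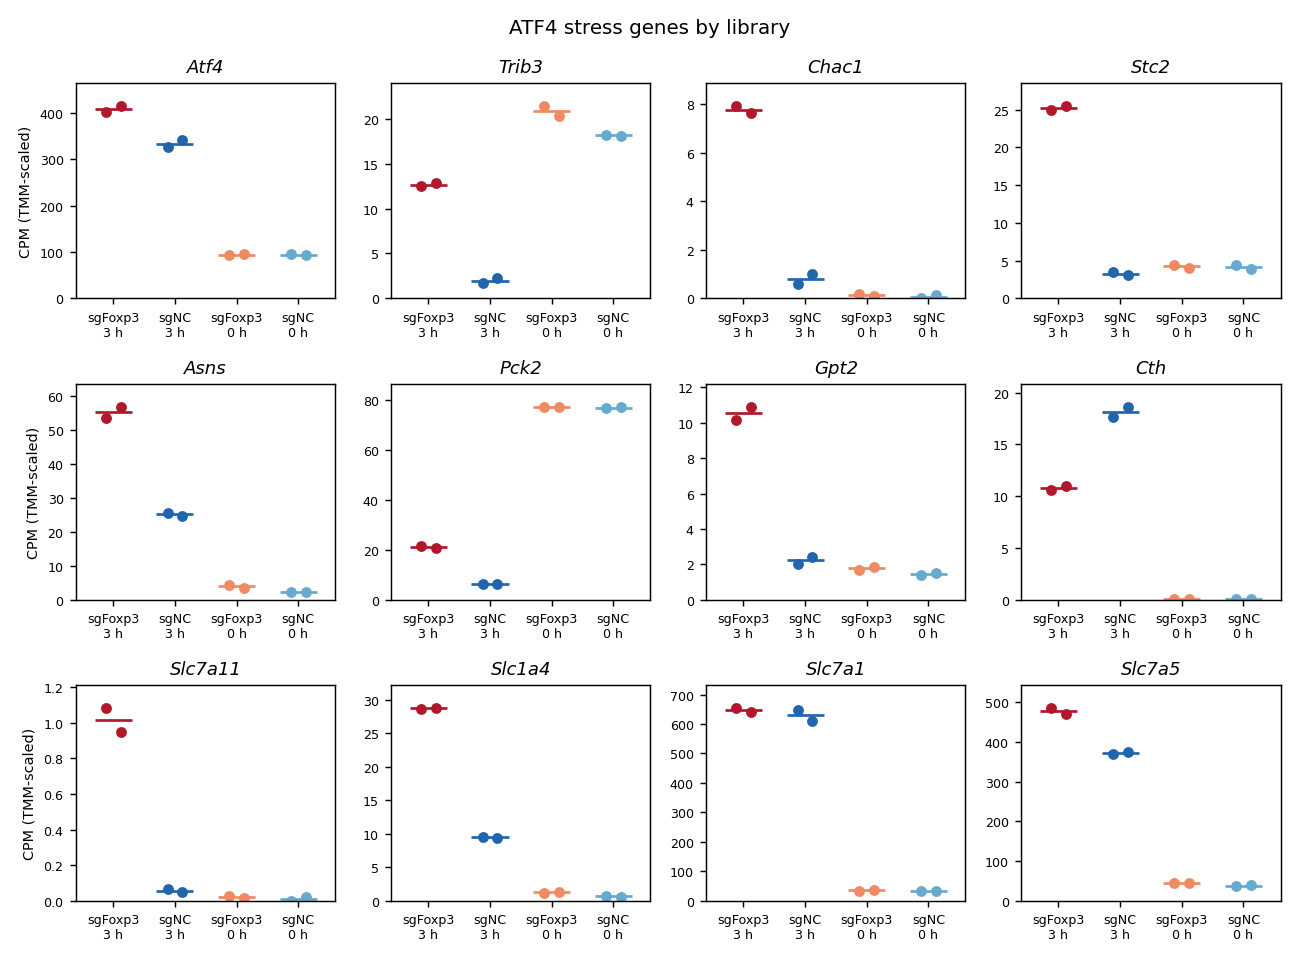
CPM in each library (points) with the group mean (line) for 12 ATF4 stress genes; each panel has its own linear axis from 0. Trib3, Chac1, Stc2, Gpt2 and Slc7a11 are higher in both stimulated sgFoxp3 libraries than in both stimulated sgNC libraries, and Slc7a1 rises with stimulation by 4.2 with sgFoxp3 and 4.28 with sgNC on the log2 scale.

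Of the 4 amino acid enzymes, 3 were higher with sgFoxp3 at 3 h and 1 was lower, where 30.7% and 30.8% of all tested genes were. Asns, asparagine synthetase (ENSMUSG00000029752.12; chromosome 6, 7675169 to 7693254, minus strand), had 53.5 and 56.8 CPM with sgFoxp3, against 25.6 and 24.7 CPM with sgNC at 3 h and 4.44 and 3.49 CPM with sgFoxp3, against 2.23 and 2.202 CPM with sgNC at 0 h, and the guides did not overlap at either time. Its guide effect was 1.13 ± 0.059 at 3 h and 0.84 ± 0.12 at 0 h, and the difference of 0.29 ± 0.14 did not pass (adjusted p = 0.0944, edgeR). It did pass without sgFoxp3 0 h replicate 1 (0.47, adjusted p = 0.00952), with RLE (0.36, adjusted p = 0.0445) or upper-quartile scaling (0.36, adjusted p = 0.0436) and on the TPM scale (0.67 with a pseudocount of 1, adjusted p = 0.00834, and 0.62 with 0.1, adjusted p = 0.0297), and was 0.13 without sgFoxp3 0 h replicate 2 (adjusted p = 0.498). Stimulation raised Asns by 3.8 ± 0.072 with sgFoxp3 and 3.5 ± 0.095 with sgNC.

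Gpt2, the mitochondrial alanine transaminase, had 10.2 and 10.9 CPM with sgFoxp3, against 2.02 and 2.43 CPM with sgNC at 3 h and 1.68 and 1.85 CPM with sgFoxp3, against 1.41 and 1.49 CPM with sgNC at 0 h. Its guide effect of 2.25 ± 0.11 at 3 h exceeded that at 0 h, 0.28 ± 0.15, by 1.97 ± 0.20 (adjusted p = 1.24e-08, edgeR). Pck2, the mitochondrial PEP carboxykinase (ENSMUSG00000040618.7; chromosome 14, 55540266 to 55551242, plus strand), had 21.3 and 20.6 CPM with sgFoxp3, against 6.44 and 6.33 CPM with sgNC at 3 h. In mock-treated cells it had 77.1 and 77.1 CPM with sgFoxp3, against 76.6 and 77.1 CPM with sgNC, so the effect of 1.71 ± 0.063 stood against 0.00 ± 0.042 at 0 h. Stimulation lowered Pck2, with TCR effects of -1.88 ± 0.045 with sgFoxp3 and -3.59 ± 0.057 with sgNC, the largest fall of any stress gene with sgNC.

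Cth, the cystathionine lyase that makes cysteine, was the enzyme with the opposite guide effect. It had 10.6 and 10.97 CPM with sgFoxp3, against 17.6 and 18.6 CPM with sgNC at 3 h, a log2 change of -0.75 ± 0.079, with no overlap between the guides. Before stimulation Cth was close to absent, with 4 counts over both sgFoxp3 libraries and 6 over both sgNC libraries. The resulting TCR effects, 8.46 with sgFoxp3 and 8.1 with sgNC on the log2 scale, were the largest among these genes. Their sizes rest on those few 0 h counts and are imprecise, and no counting interval was computed for them.

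Among the 8 amino acid transporters, 6 were higher with sgFoxp3 at 3 h, none was lower and 2 (Slc1a5 and Slc7a1) did not pass. Of all tested genes, 30.7% were higher and 30.8% lower. On the log2(TPM+1) scale Slc3a2 and Slc38a2 changed sign and Slc1a5 and Slc7a1 were lower. The largest changes were those of transporters with few transcripts. Slc7a11 is the cystine importer xCT (ENSMUSG00000027737.10, chromosome 3, 49892526 to 50443614, minus strand). At 3 h it had 1.08 and 0.948 CPM with sgFoxp3, against 0.0666 and 0.0472 CPM with sgNC (log2 4.09 ± 0.46). These rest on 131 counts over both sgFoxp3 libraries and 5 over both sgNC libraries. Only the stimulated sgFoxp3 libraries carried Slc7a11 past the filter on low counts, each other library having 0 to 3 counts. Its call at 3 h is thus not independent of that filter, and no p-value is given. At 0 h it had 3 counts with sgFoxp3 and 1 with sgNC, where the ratio on the log2 scale was 1.0 (95% counting interval -2.63 to 6.72). The rise with stimulation was a log2 ratio of 5.54 (3.97 to 7.84) with sgFoxp3 and of 2.42 (-0.74 to 7.99) with sgNC, and the second interval includes 0.

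Slc7a3, a cationic amino acid transporter (ENSMUSG00000031297.14; chromosome X, 101079210 to 101086020, minus strand), had 2.27 and 2.33 CPM with sgFoxp3, against 0.444 and 0.236 CPM with sgNC at 3 h. At 0 h the order was the other way, 0.126 and 0.204 CPM with sgFoxp3, against 0.335 and 0.347 CPM with sgNC, a log2 change of -1.05 ± 0.39 that lost its call without any 1 of 3 libraries, sgFoxp3 0 h replicate 1 (adjusted p = 0.18), sgNC 0 h replicate 1 (0.0632) or sgNC 0 h replicate 2 (0.0882). The difference between these effects, 3.79 ± 0.49, was the largest of all the members that passed (adjusted p = 6.48e-07, edgeR). Slc1a4, a neutral amino acid transporter for alanine, serine and cysteine, had 28.7 and 28.8 CPM with sgFoxp3, against 9.57 and 9.39 CPM with sgNC at 3 h and 1.15 and 1.35 CPM with sgFoxp3, against 0.693 and 0.591 CPM with sgNC at 0 h. It rose with the guide at both times, by 1.6 ± 0.069 and 0.96 ± 0.18, and with stimulation by 4.52 ± 0.089 with sgFoxp3 and 3.88 ± 0.13 with sgNC.

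The abundant transporters followed stimulation and differed little between guides. Slc7a5, the large neutral amino acid transporter LAT1, had 485 and 471 CPM with sgFoxp3, against 371 and 375 CPM with sgNC at 3 h and 43.9 and 44.6 CPM with sgFoxp3, against 37.9 and 38.8 CPM with sgNC at 0 h. Slc3a2, the CD98 heavy chain that pairs with Slc7a5 and Slc7a11, had 316 and 317 CPM with sgFoxp3, against 291 and 293 CPM with sgNC at 3 h and 62.2 and 61.4 CPM with sgFoxp3, against 55.7 and 58.1 CPM with sgNC at 0 h. Its TCR effect was 2.36 ± 0.039 with sgFoxp3 and 2.36 ± 0.040 with sgNC, a difference between the guides that did not pass. Slc1a5, the glutamine transporter ASCT2, had 1301 and 1337 CPM with sgFoxp3, against 1248 and 1319 CPM with sgNC at 3 h, which overlapped, and 159.6 and 156 CPM with sgFoxp3, against 183 and 173 CPM with sgNC at 0 h. Slc7a1, the main arginine and lysine transporter of many cells, had 654 and 642 CPM with sgFoxp3, against 649 and 612 CPM with sgNC at 3 h and 34.4 and 35.97 CPM with sgFoxp3, against 32.95 and 31.8 CPM with sgNC at 0 h, rising 18.4-fold with sgFoxp3 and 19.5-fold with sgNC on stimulation. Slc38a2, the transporter SNAT2 that responds to amino acid starvation, stayed between 154 and 195 CPM in all 8 libraries.

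Among the synthetases, Aars, which charges alanine tRNA (ENSMUSG00000031960.14; chromosome 8, 111033144 to 111057664, plus strand), had the largest guide effect at both times. At 3 h it had 225 and 227 CPM with sgFoxp3, against 124 and 124 CPM with sgNC (log2 0.86 ± 0.037, adjusted p = 5.50e-16, edgeR), and at 0 h 86.8 and 83.4 CPM with sgFoxp3, against 54.6 and 57.3 CPM with sgNC (log2 0.60 ± 0.040). Aars was also the only synthetase called higher at 0 h on the log2(TPM+1) scale. Cars, for cysteine (ENSMUSG00000010755.17; chromosome 7, 143557230 to 143600090, minus strand), followed with 112 and 115 CPM with sgFoxp3, against 65.3 and 65.1 CPM with sgNC at 3 h and 32.2 and 32.2 CPM with sgFoxp3, against 27.1 and 27.1 CPM with sgNC at 0 h, and its 0 h effect of 0.25 ± 0.046 turned to -0.18 on that scale.

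Nars, for asparagine, had 405 and 417 CPM with sgFoxp3, against 272 and 267 CPM with sgNC at 3 h and 97.9 and 99.1 CPM with sgFoxp3, against 88.03 and 87.2 CPM with sgNC at 0 h. Yars, for tyrosine, had 147 and 154 CPM with sgFoxp3, against 96.6 and 98.7 CPM with sgNC at 3 h and 32.01 and 30.7 CPM with sgFoxp3, against 29.9 and 27.7 CPM with sgNC at 0 h. Both were separated by guide at 3 h, by 0.61 ± 0.037 and 0.63 ± 0.041, and their smaller 0 h effects of 0.17 ± 0.039 and 0.12 ± 0.049 changed sign on the log2(TPM+1) scale. Gars, for glycine, had 261 and 263 CPM with sgFoxp3, against 189.6 and 184 CPM with sgNC at 3 h and 85.8 and 84.2 CPM with sgFoxp3, against 67.5 and 69.8 CPM with sgNC at 0 h. Tars, for threonine, had 294 and 299 CPM with sgFoxp3, against 219.7 and 222 CPM with sgNC at 3 h. The guides overlapped for Tars at 0 h, 42.8 and 40.4 CPM with sgFoxp3, against 42.3 and 44.1 CPM with sgNC, and its guide effect at 3 h was 0.43 ± 0.037. Sars, for serine, was 159 and 162 CPM with sgFoxp3, against 113 and 113 CPM with sgNC at 3 h, a rise of 0.51 ± 0.040.

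The synthetases with the largest TCR effects were Iars, Tars and Rars with sgFoxp3, for isoleucine, threonine and arginine, and Iars, Rars and Farsb with sgNC. Iars had 380.2 and 381 CPM at 3 h, against 52.8 and 52.6 CPM at 0 h with sgFoxp3 and 302 and 285 CPM at 3 h, against 49.5 and 48.3 CPM at 0 h with sgNC, rises of 2.85 ± 0.041 and 2.59 ± 0.042. Rars had 232 and 237 CPM at 3 h, against 38.3 and 40.7 CPM at 0 h with sgFoxp3 and 215 and 209 CPM at 3 h, against 38.2 and 38.5 CPM at 0 h with sgNC. Its guide effect at 3 h, 0.15 ± 0.037, was small beside this and turned to -0.07 on the log2(TPM+1) scale. Farsb, the beta subunit of the phenylalanine enzyme, had 135 and 139.9 CPM at 3 h, against 24.4 and 25.9 CPM at 0 h with sgFoxp3 and 112 and 112 CPM at 3 h, against 21.6 and 21.8 CPM at 0 h with sgNC. Farsa, its alpha subunit, had 149 and 152 CPM at 3 h, against 37.8 and 37.6 CPM at 0 h with sgFoxp3 and 132 and 136 CPM at 3 h, against 39.5 and 38.01 CPM at 0 h with sgNC, a smaller TCR effect than that of Farsb with both guides. Eprs, which joins glutamate and proline activities in 1 protein, had 474 and 473 CPM at 3 h, against 99.02 and 101 CPM at 0 h with sgFoxp3 and 411 and 386 CPM at 3 h, against 95.7 and 100.2 CPM at 0 h with sgNC. Kars, for lysine, had 336 and 343 CPM at 3 h, against 119 and 118 CPM at 0 h with sgFoxp3 and 314 and 316 CPM at 3 h, against 92.1 and 96.8 CPM at 0 h with sgNC.

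Hars, Mars, Lars and Dars, for histidine, methionine, leucine and aspartate, also rose, with sgNC by less than each synthetase of the preceding paragraph. Hars had 136 and 139.8 CPM at 3 h, against 44.8 and 44.4 CPM at 0 h with sgFoxp3 and 110.2 and 107 CPM at 3 h, against 38.6 and 39.6 CPM at 0 h with sgNC. Mars had 119.6 and 122 CPM at 3 h, against 43.99 and 42.1 CPM at 0 h with sgFoxp3 and 93.3 and 101 CPM at 3 h, against 38.4 and 41.2 CPM at 0 h with sgNC. Every stimulated library lay above every mock-treated one for these genes. Lars had 151 and 154 CPM at 3 h, against 57.1 and 54.3 CPM at 0 h with sgFoxp3 and 130.5 and 123 CPM at 3 h, against 53.4 and 56.1 CPM at 0 h with sgNC. Dars had 133 and 135 CPM at 3 h, against 58.7 and 60.6 CPM at 0 h with sgFoxp3 and 118 and 111 CPM at 3 h, against 51.6 and 51.3 CPM at 0 h with sgNC, the smallest TCR effect among the 16 synthetases that rose 2-fold or more.

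Vars, Qars, Wars and Sars stood apart from the other synthetases after stimulation. Vars, for valine, stayed between 191 and 227 CPM in all 8 libraries. Qars, for glutamine, had 132 and 129.8 CPM at 3 h, against 143 and 147 CPM at 0 h with sgFoxp3, a TCR effect of -0.15 ± 0.036, and 119 and 118 CPM at 3 h, against 112 and 115 CPM at 0 h with sgNC, which did not pass. Wars, for tryptophan, is also known as an interferon-induced gene. It had 152 and 156 CPM with sgFoxp3, against 145 and 143 CPM with sgNC at 3 h, where the guides lay close, but 95.9 and 95.1 CPM with sgFoxp3, against 135 and 141 CPM with sgNC at 0 h, a log2 change of -0.53 ± 0.037.

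**Figure D3:**
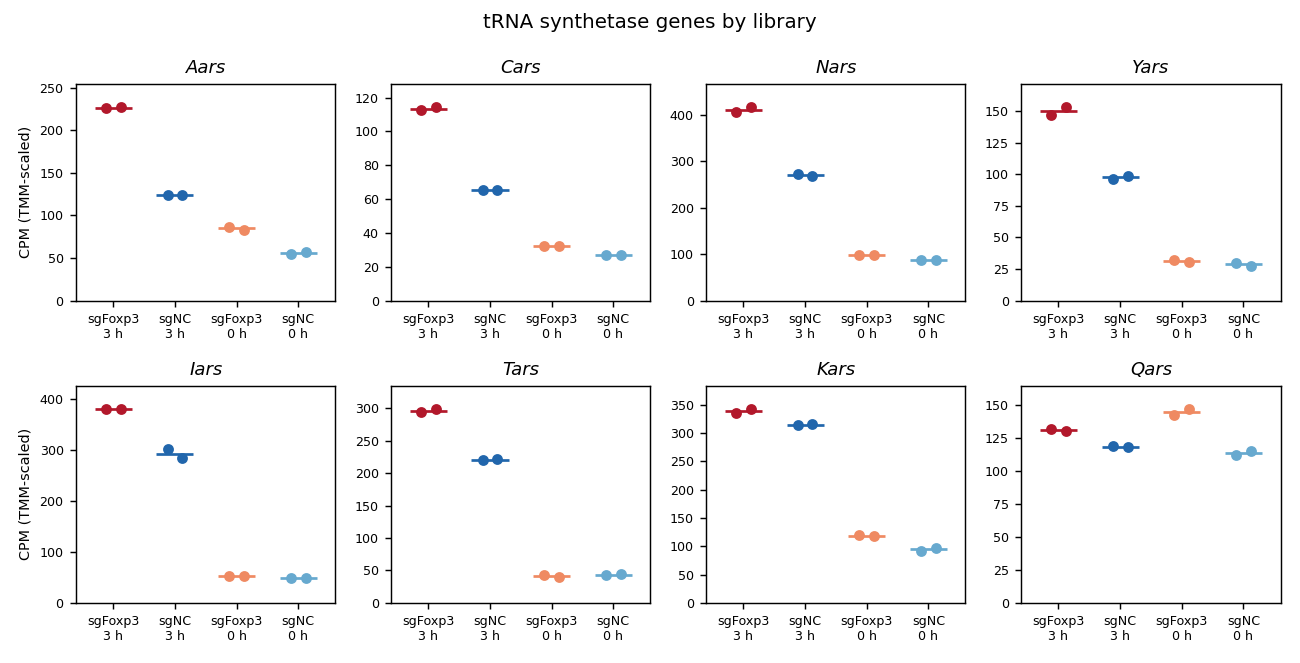
CPM in each library (points) with the group mean (line) for 8 tRNA synthetase genes; each panel has its own linear axis from 0. Aars, Cars, Nars and Yars are higher in both stimulated sgFoxp3 libraries than in both stimulated sgNC libraries, Iars and Tars are mainly parted by stimulation, and Qars changes little.

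Per length of transcript, the order of the synthetases changed with stimulation. In stimulated cells Nars was highest with sgFoxp3, at 250.7 ± 2.45 TPM (SD, n = 2), and Kars with sgNC, at 242 ± 1.01 TPM. Aars was the lowest of the 20 in both, at 58.5 ± 2.36 TPM with sgFoxp3 and 37.9 ± 0.559 TPM with sgNC. In mock-treated cells Qars led, at 217.1 ± 6.56 TPM with sgFoxp3 and 214.2 ± 11.8 TPM with sgNC, which differed by less than their SD. Vars followed, at 139.4 ± 1.79 TPM with sgFoxp3 and 189.2 ± 10.4 TPM with sgNC. The lowest in mock-treated cells were Yars with sgFoxp3, at 20.4 ± 0.262 TPM, and Farsb with sgNC, at 22.6 ± 0.099 TPM.

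The second comparison asked for the guide effect in mock-treated cells. Of the 25 stress genes, 10 were higher with sgFoxp3, 6 were lower and 9 did not pass, where 63.3% of all tested genes passed, 34.2% as higher and 29.1% as lower. None was higher by 2-fold or more (9.21% of all genes) and 2 were lower by that much (6.33% of all genes), Vldlr and Slc7a3. Of the 20 synthetases, 13 were higher, 2 (Wars and Vars) were lower and 5 did not pass. Without sgFoxp3 0 h replicate 2 or sgNC 0 h replicate 2, Vars lost its call and 1 synthetase was lower. The medians were 0.12 for both lists, against 0.02 for all genes. These directions depended on scaling: on the log2(TPM+1) scale 1 synthetase (Aars) was higher and 13 were lower, 1 stress gene (Sesn2) was higher and 9 were lower, and the medians were -0.19 and -0.14, against -0.15 for all genes. Aars, Gars, Kars, Qars, Asns, Slc1a4, Sesn2, Eif4ebp1, Atf5 and Chac1 kept a positive sign under every scaling run, called or not.

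The next 2 comparisons asked what TCR stimulation did with each guide. With sgFoxp3, 18 of 20 synthetases rose, 1 fell and 1 did not pass, and 16 rose by 2-fold or more. Of all tested genes, 85.4% passed, 40.8% as higher and 44.5% as lower, and 22.6% were higher by 2-fold or more. With sgNC, 17 synthetases rose, 1 fell and 2 did not pass, again with 16 at 2-fold or more, where 81.8% of all genes passed, 40.9% in each direction, and 21.8% were higher by 2-fold or more. The synthetase medians were 1.63 with sgFoxp3 and 1.46 with sgNC. The fall of Qars with sgFoxp3 was not called without sgFoxp3 3 h replicate 2 (adjusted p = 0.072), nor that of Vars with sgNC without sgNC 0 h replicate 2 (adjusted p = 0.131), leaving 0 lower in each case. On the log2(TPM+1) scale 18 were higher and 2 lower with sgFoxp3, and 16 were higher and 4 (Qars, Sars, Vars and Wars) lower with sgNC.

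Among the 25 stress genes 19 rose and 5 fell with sgFoxp3, where 40.8% and 44.5% of all tested genes did. With sgNC 12 rose (48%) and 7 fell (28%), where 40.9% of all tested genes went in each direction, so the share that rose was near that of all genes. Falls of 2-fold or more were those of Ddit4 and Pck2 with sgFoxp3, where 28.4% of all genes fell that much, and those of Pck2, Trib3, Ddit4 and Ddit3 with sgNC, where 24.2% did. The list medians were 2.36 with sgFoxp3 and 0.61 with sgNC on this scale. With log2(TPM+1) they were 1.0 with sgFoxp3 and 0.10 with sgNC, against -0.18 and -0.20 for all genes. Across the 20 synthetases the TCR effects with the 2 guides had a Pearson correlation of 0.964, and across the 25 stress genes of 0.888. These values are across genes, which share libraries and are not independent replicates. The guide effects at 3 h and 0 h had correlations of 0.532 across synthetases and 0.387 across stress genes.

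**Figure D4:**
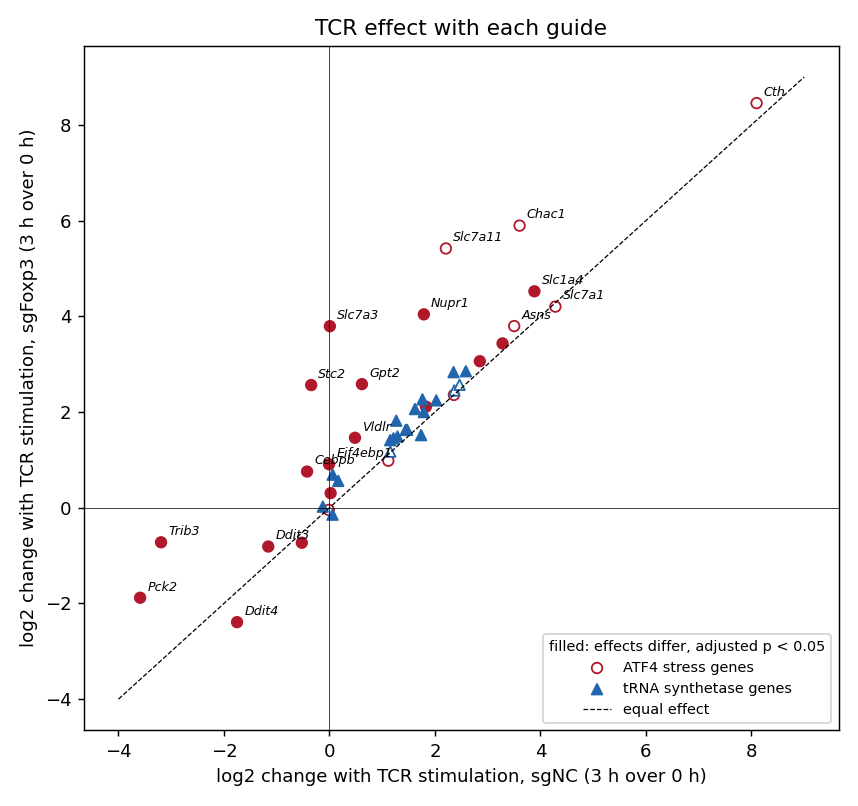
Log2 change with TCR stimulation (3 h over 0 h) with sgFoxp3 (vertical) against sgNC (horizontal) for each member; the dashed line marks equal effects and filled points differ at an adjusted p below 0.05. Synthetases lie near the line, whereas Stc2, Slc7a3, Trib3, Gpt2, Nupr1 and Pck2 lie above it.

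The fifth comparison tested whether the guide effect differed between 3 h and 0 h, which is the same contrast as the difference between the TCR effects with sgFoxp3 and with sgNC. The difference was positive and passed for 15 of 25 stress genes and negative for 2 (Ddit4 and Sesn2), where 44.8% of all genes passed, 17.8% as positive and 27% as negative. Upward differences of 2-fold or more were found for 7 genes (3.33% of all genes): Slc7a3, Stc2, Trib3, Nupr1, Gpt2, Pck2 and Cebpb. None was negative by that much (6.02% of all genes). Among synthetases 15 were positive, 2 (Kars and Qars) negative and 3 (Rars, Farsb and Dars) did not pass. Without sgFoxp3 3 h replicate 2 Qars lost its call (adjusted p = 0.119). The medians were 0.36 for stress genes and 0.21 for synthetases, against -0.09 for all genes. On the log2(TPM+1) scale 16 stress genes were positive and 2 (Cth and Ddit4) negative, and 14 synthetases were positive and none negative.

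Within the synthetases, the 12 that are often listed as ATF4 targets and the other 8 were set side by side. The list came from general knowledge and was fixed with earlier results of these data known, so the split describes the genes and tests nothing. All 12 listed genes passed with a positive difference, as 17.8% of all tested genes did, from 0.18 for Gars to 0.63 for Wars, with a median of 0.33. Of these 12, Gars lost its call without sgFoxp3 0 h replicate 2 (adjusted p = 0.0528) or sgNC 0 h replicate 2 (0.0569), and Mars without sgFoxp3 0 h replicate 2 (0.0996), sgNC 3 h replicate 1 (0.0973) or sgNC 0 h replicate 2 (0.139). Of the other 8, 3 (Farsa, Hars and Vars) were positive and 2 negative, with a median of 0.09. Hars and Vars each lost their call in 4 of the 8 fits that left out 1 library (largest adjusted p 0.139 for Hars and 0.268 for Vars, both without sgNC 0 h replicate 2). At 3 h the guide effect had a median of 0.46 in the listed genes and 0.16 in the others, whereas the TCR effect with sgNC had medians of 1.37 and 1.61. For Wars the difference came with a fall at 0 h, and its guide effect at 3 h was 0.10 ± 0.037, which lost its call without sgNC 3 h replicate 2 (adjusted p = 0.0919) and turned to -0.11 on the log2(TPM+1) scale.

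**Figure D5:**
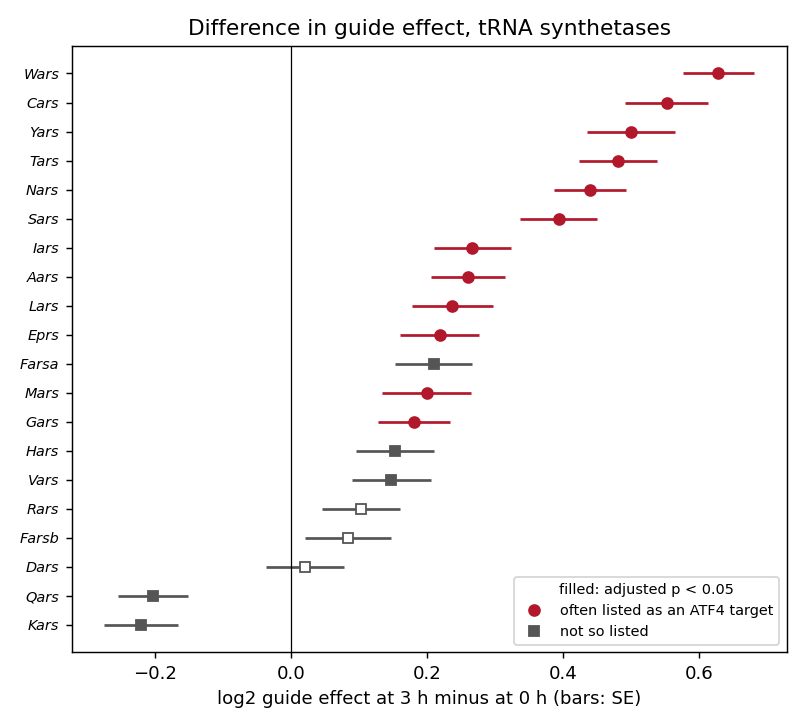
Guide effect at 3 h minus guide effect at 0 h (log2, SE bars) for the 20 tRNA synthetases; circles are genes often listed as ATF4 targets, squares the others, and filled points passed an adjusted p of 0.05. All 12 circles are filled and above 0, and Kars and Qars lie below 0, where neither passed on the log2(TPM+1) scale. The list behind the circles was fixed with earlier results of these data known.

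The cytosolic multi-synthetase complex holds 8 of these enzymes, Dars, Eprs, Iars, Kars, Lars, Mars, Qars and Rars, on 3 scaffold proteins. Their guide effect at 3 h had a median of 0.24, against 0.46 for the 12 outside it, and the difference between times 0.15, against 0.33. The scaffold genes Aimp1, Aimp2 and Eef1e1 were all higher at 3 h, led by Eef1e1 at 0.38 ± 0.039. Eef1e1 also had the largest TCR effect of the scaffolds, 4.75 ± 0.052 with sgFoxp3 and 4.42 ± 0.056 with sgNC. Of the 17 mitochondrial synthetases, encoded by separate genes, 6 were higher and 7 lower at 3 h, shares near the 30.7% and 30.8% of all tested genes, and their median was 0.04. The largest fall among them was that of Cars2, -0.62 ± 0.059.

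Other genes of the pathway were listed for comparison. Of 9 kinases, regulators and targets around eIF2, 4 were higher and 2 lower with sgFoxp3 at 3 h, against 30.7% and 30.8% of all tested genes, and 2 were higher and 6 lower at 0 h, against 34.2% and 29.1%. The PERK gene Eif2ak3 was higher at 0 h by 0.87 ± 0.041 and Ppp1r15a, the GADD34 subunit that reverses eIF2 phosphorylation, was lower, with a log2 change of -0.84 ± 0.052. Of 11 further ATF4 target genes with enough counts, 9 were higher and 1 lower at 3 h (30.7% and 30.8% of all tested genes), with a median of 0.54, led by the proline synthesis gene Pycr1 at 2.01 ± 0.18. At 0 h 5 were higher and 2 lower (34.2% and 29.1% of all tested genes), led by the serine synthesis gene Psat1 at 1.72 ± 0.044, whose guide effect shrank to 0.65 ± 0.035 at 3 h.

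Of 10 tested amino acid transporters outside the ATF4 list, 4 were higher and 5 lower at 3 h, where 30.7% and 30.8% of all tested genes were. The largest changes were a rise of the glycine transporter gene Slc6a9, 2.77 ± 0.14, and a fall of the cationic transporter gene Slc7a2, -2.57 ± 0.26. Among 10 endoplasmic reticulum chaperone and stress genes, 8 were higher and 1 lower at 3 h (30.7% and 30.8% of all tested genes), with a median of 0.59 and Sdf2l1 leading at 1.29 ± 0.072. The chaperone Hspa5, known as BiP, was higher by 0.34 ± 0.041 at 3 h and 0.12 ± 0.042 at 0 h, and it rose with stimulation by 3.4 ± 0.045 with sgFoxp3 and 3.17 ± 0.045 with sgNC.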

How the data were processed

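Stranded RNA-seq libraries of total RNA were analysed from the gene-level files. The submitters' processing notes name Trim Galore 0.6.3, STAR 2.7.9a, RSEM 1.3.1 and the build mm10 (GRCm38). The annotation release is not given in the sources used here, and coordinates are from GENCODE M21 on GRCm38, which held the identifier and version of every member. The authors deposited expected counts per gene, rounded here to whole numbers, and TPM values per gene, used as an alternative scale and for levels between genes. Totals, which limit the precision of low genes, were 55865290 and 94807362 (sgFoxp3 3 h), 48626432 and 45518491 (sgNC 3 h), 66804803 and 64135431 (sgFoxp3 0 h) and 38729009 and 42698042 (sgNC 0 h). The libraries of a group were compared for duplication; the chi-square per gene was 4.38 to 7.11, so none was a copy of another.

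Genes were filtered with filterByExpr (16642 kept), scaled by TMM and fitted in R 4.3.3 using edgeR 4.0.16 (robust quasi-likelihood, 8 libraries, 1 mean per group, 4 residual degrees of freedom, median prior 19.1, common biological coefficient of variation 3.41%). Adjustment was by Benjamini-Hochberg over all tested genes, and calls needed an adjusted p under 0.05. The SE is the log2 change over the square root of F. Ratios with 1 to 3 counts in a group have a 95% counting interval, which covers counting error only. Members and lists were chosen with earlier results of these data known. Named sample by sample are members called with a change of at least 2-fold in any comparison and the leading member of each role; of other lists, the largest rise and fall. Outside this rule, Qars, Sars, Sesn2 and Wars were given by sample, and Hspa5 and single marker genes named, after their values were seen. The fit was checked on simulated counts. Alternatives were DESeq2 1.42.0, limma 3.58.1 on log2(TPM+1) or log2(TPM+0.1), scaling by upper quartile or RLE, no filter on low counts, a fit of the 4 libraries in a comparison alone, a block for replicate number, an adjusted p of 0.01 and each library left out in turn; a block with crossed numbers was added after seeing the data. Some items are not reported here.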

Additional observations from a re-analysis of the deposited data

Results flagged for a closer look

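The guide effect of 7 stress genes differed between the times by at least 2-fold in edgeR's test of the difference itself, the effect at 3 h minus that at 0 h on the log2 scale. For the transporter gene Slc7a3 this difference was 3.79 (adjusted p = 6.48e-07), with an effect of 2.74 at 3 h and -1.05 at 0 h on 303 counts over both stimulated sgFoxp3 libraries and 23 to 32 in each other group. For Stc2 it was 2.91 (adjusted p = 1.55e-14), for Trib3 2.47 (adjusted p = 4.93e-14) and for Nupr1 2.25 (adjusted p = 3.98e-04). For the enzyme genes Gpt2 and Pck2 it was 1.97 (adjusted p = 1.24e-08) and 1.71 (adjusted p = 5.31e-15). For Cebpb it was 1.18 (adjusted p = 2.02e-05), with a higher level with sgFoxp3 at 3 h and a lower level at 0 h. Hba-a1 stood at 70.97 and 72.3 CPM with sgFoxp3, against 6.46 and 6.49 CPM with sgNC at 3 h, and at 64.8 and 65.5 CPM with sgFoxp3, against 8.04 and 8.26 CPM with sgNC at 0 h. Itgam, a myeloid marker, had 3.47 and 3.67 CPM with sgFoxp3, against 0.688 and 0.802 CPM with sgNC at 3 h, and the part of these in the differences was not tested. All 7 kept their direction and call under every alternative run.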

How the results depend on the processing

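The 11 stress genes higher by 2-fold or more at 3 h kept their direction under every alternative run, and those other than Slc7a11 kept their call. The call of Slc7a11 was not independent of the filter on low counts, so its persistence is no support. Leaving out 1 library gave these ranges of counts with sgFoxp3 against sgNC at 3 h: 18 to 19 synthetases and 17 to 19 stress genes higher. At 0 h, 9 to 13 synthetases were higher and 1 to 2 lower, and 8 to 11 stress genes were higher and 4 to 6 lower. The synthetases that fell with stimulation, and the members negative in the difference between times, were never more than in the full fit. The members of each list called positive in that difference became fewer in some of these fits, and Slc7a5 lost its call in several. Slc7a5 also lost its call there in edgeR without the filter on low counts (0.12, adjusted p = 0.159).

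With TPM in place of scaled counts the guide effect at 0 h had 1 synthetase higher and 13 lower with either pseudocount (medians -0.19 and -0.20). The stress genes had 10 called, 1 of them higher, with a pseudocount of 1 and 2 higher and 12 lower with 0.1 (medians -0.14 and -0.16). At 3 h 11 synthetases were called, 9 higher and 2 lower, and 4 stress genes were lower. With stimulation 2 synthetases were lower with sgFoxp3 and 4 with sgNC, and for the difference 0 synthetases were negative. Upper-quartile scaling gave 4 synthetases lower at 0 h, and 2 with sgFoxp3 and 3 with sgNC lower after stimulation. DESeq2 called 6 stress genes higher at 0 h and 1 synthetase negative in the difference; 1 stress gene was negative there with RLE, upper-quartile scaling, DESeq2, a pseudocount of 0.1 or an adjusted p below 0.01. The cause of these shifts was not tested.

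Single members changed sign on the TPM scale. For the guide and TCR effects the median of all tested genes was itself below 0 there. With a pseudocount of 1 it was -0.15 for the guide effect at 0 h and -0.12 at 3 h. For the TCR effect it was -0.18 with sgFoxp3 and -0.20 with sgNC. Minus this median, the 0 h effect was 0.07 for Hars and -0.26 for Lars, so a negative value can lie above or below it. A second value below is that with a pseudocount of 0.1, where it rounds differently. The guide effect at 0 h became -0.26 for Atf4, -0.18 and -0.19 for Cars, -0.14 for Cebpg, -0.058 and -0.059 for Dars, -0.18 for Ddit4 and -0.23 for Eprs. It became -0.025 and -0.026 for Farsb, -0.082 and -0.084 for Hars, -0.21 and -0.22 for Iars, -0.41 and -0.42 for Lars, -0.27 for Mars and -0.10 for Nars. At 0 h it also became -0.23 for Pck2, -0.20 and -0.21 for Rars, -0.17 for Sars, -0.15 and -0.16 for Slc3a2, -0.14 and -0.16 for Slc7a1 and -0.027 and -0.028 for Slc7a5. Further 0 h effects were -0.059 and -0.062 for Trib3 and -0.30 and -0.31 for Yars. At 3 h it became -0.0062 and -0.0064 for Cebpg, -0.044 and -0.045 for Farsa, -0.086 for Kars, -0.17 and -0.18 for Lars, -0.078 for Qars and -0.067 for Rars. Other 3 h effects became -0.15 for Slc1a5, -0.046 and -0.047 for Slc38a2, -0.094 for Slc3a2, -0.16 for Slc7a1 and -0.11 for Wars. The TCR effect with sgFoxp3 became -0.25 for Vars. The TCR effect with sgNC became -0.33 for Qars, -0.22 for Sars, -0.32 for Slc38a2 and -0.30 and -0.31 for Wars. The difference between times became -0.79 for Cth (pseudocount of 1 alone). Under upper-quartile scaling the TCR effect became -0.15 for Vars with sgFoxp3, -0.18 for Wars with sgNC, -0.22 for Slc38a2 with sgNC, -0.18 for Qars with sgNC and -0.071 for Sars with sgNC.

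Same-numbered libraries of different groups deviated together with correlations of -0.10 to 0.11, so the numbers were not taken to pair the libraries. With the replicate number as a block 19 synthetases and 21 stress genes were called at 3 h, as without it, and Mars at 0 h (adjusted p = 0.0508) and the differences of Vars (0.0567) and Vldlr (0.0543) lost their calls. With the sgFoxp3 3 h numbers crossed, 19 synthetases and 24 stress genes were called for the TCR effect with sgFoxp3. Groups of 2 do not allow a test for outlying libraries, and at the counts of Slc7a11 and Cth at 0 h a guide effect was not detectable at this depth.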
